A study of Mus musculus and blank sample with 191 samples.

Results

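Wild-type uterine epithelium was compared with the stroma of the same mice, gene by gene, in a spatial whole-transcriptome profile of the mouse uterus. The members were the regions of interest collected on the first plate whose titles carry the genotype N/N and a compartment, in the mice that had both compartments there. They were 41 of the 189 regions of the series, 27 of epithelium and 14 of stroma, from 7 mice called WT1 to WT6 and WT8 here. WT7 had 1 compartment only on that plate, so its 2 regions were not used. N/N mice carry 2 normal copies of Thra, the gene of thyroid hormone receptor alpha (TRα). They were the controls for Thra1 PV/+ mice (PV below), which carry 1 knocked-in copy of a dominant negative TRα1 at that locus, and so express it wherever Thra is active. The 52 first-plate regions of 6 such PV mice, aged 2.4 to 6.3 months, served for a single comparison at the end.

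The WT mice were 4.0 (WT2), 4.5 (WT1), 5.0 (WT8), 6.3 (WT3 and WT4), 7.4 (WT6) and 9.0 months old (WT5), reading the ages of the labels as months. No treatment is named in the labels for these mice, and the labels and methods read here name no strain. The study's methods describe females synchronised by soiled male bedding and judged to be in metestrus by inspection and an impedance meter, with no stage listed for single mice. Regions were outlined on fixed, paraffin-embedded uterus by a veterinary pathologist, from tissue shape and from staining for cytokeratin and smooth muscle actin. Keratins and Acta2 therefore check the outlines and are no finding. The labels do not separate the epithelium lining the lumen from that of the glands. Each mouse gave 2 to 6 epithelium regions and 1 to 3 stroma regions, and their counts were added up, so that the mouse was the replicate (n = 7 pairs).

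The endometrium is built of a columnar epithelium, which lines the lumen and dips inwards as glands, and of a stroma of fibroblasts that also holds vessels, pericytes and immune cells. Epithelial cells are polarised, sealed by tight junctions, attached to a basement membrane and specialised in moving ions and secreting fluid and defence proteins. Stromal cells make the collagen-rich matrix and much of the basement membrane, and they answer steroid hormones with signals to the epithelium. The epithelium signals back, for instance by Indian hedgehog, whose receptor and targets lie mainly in the stroma. Both layers arise from the Müllerian duct, whose segments are patterned by Hox genes.

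The outlines held the tissue that their labels name. Krt8, a keratin of simple epithelia, ran from 595 to 1273 CPM (median 959.7) in epithelium and from 27.3 to 82.3 CPM (median 47.2) in stroma, where CPM are counts scaled to a common library size by TMM. Epcam, an epithelial adhesion molecule, ran from 202 to 447 CPM (median 329) in epithelium and from 10.6 to 36.2 CPM (median 25.5) in stroma. Every mouse had far more of both in epithelium, and the compartments did not overlap. Dcn, a collagen-binding proteoglycan of fibroblasts, ran from 116 to 206 CPM (median 156) in epithelium and from 611 to 2223 CPM (median 1231) in stroma. For Col1a1, the main chain of type I collagen, the ranges were 267 to 679 CPM in epithelium and 1333 to 5085 CPM in stroma, with medians of 413 and 2425. Both were higher in the stroma of all 7 mice, again without overlap. Over single regions, the log2 ratio of 12 columnar to 10 fibroblast markers was above 0 in 27 of 27 epithelium regions (0.644 to 3.28) and in 0 of 14 stroma regions (-5.25 to -3.02).

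Neither compartment was free of the other's RNA. Summed over the 10 fibroblast markers, epithelium held a median of 17.1% of the level in the same mouse's stroma (10.2 to 21.8%), or 1365 against 7684 CPM. The 12 columnar markers in stroma reached 6.61% of their level in epithelium (3.46 to 11.2%), or 370.3 against 4807 CPM. Endothelial markers in epithelium summed to 31.8% of their stroma level. The 11 macrophage markers summed to 36.7%, but this held Cd14 at 639.6% and Cd68 at 75.2%, whereas Csf1r, C1qa and C1qb stood at 18.0%, 18.6% and 17.7%. Whether these came from cells inside the outlines or from beyond their edges was not tested. In such region sums, fewer cells of a type and less RNA per cell cannot be told apart.

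Depth differed between the compartments. An epithelium region held 266169 to 3130397 counts (median 907241) and a stroma region 255317 to 1160209 (median 628614). The mean total per region was higher in epithelium in 6 of 7 mice (exact sign-flip permutation test over the 7 mice, two-sided p = 0.0469, where 0.0156 is the smallest possible). The level of the negative probes, which match no mouse transcript, was lower in epithelium in 7 of 7 mice, with means of 5.09 and 6.77 CPM (p = 0.0156, same test). With the negative level subtracted, 6458 of the 7097 calls given below were kept. Among genes called higher in stroma, 178 of 3666 had their higher level under 2 times the negative level, against 1 of 3431 genes called higher in epithelium. Genes of this kind are pointed out where a list holds any.

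**Figure D1:**
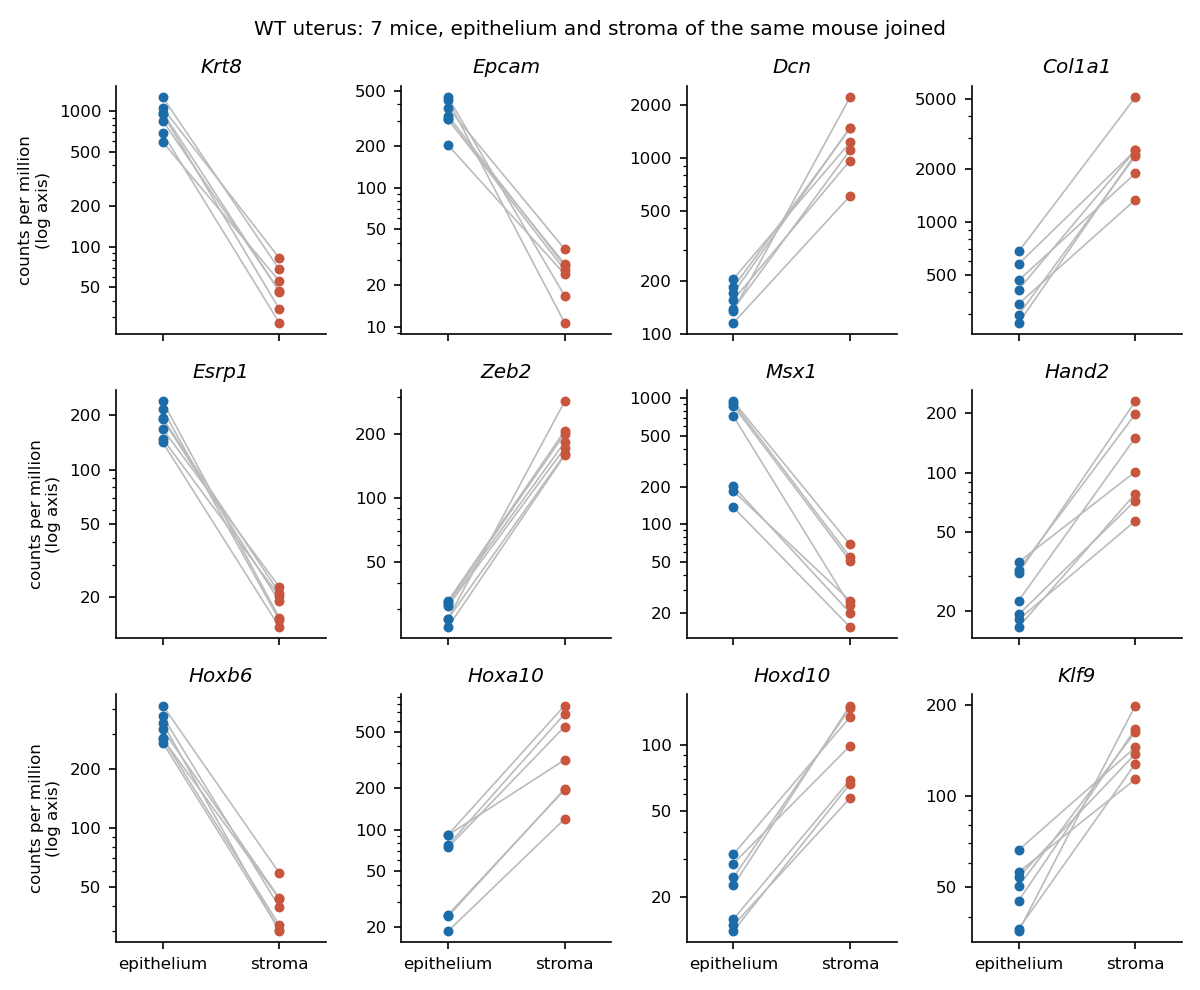
Levels of 12 genes in epithelium (blue) and stroma (red) of the 7 WT mice, in CPM on a log axis, with a line joining the 2 compartments of a mouse. All lines run the same way within a panel: Krt8, Epcam, Esrp1, Msx1 and Hoxb6 are higher in epithelium, and Dcn, Col1a1, Zeb2, Hand2, Hoxa10, Hoxd10 and Klf9 in stroma.

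Of 14881 genes tested, 7097 (47.7%) differed between the compartments at an edgeR adjusted p under 0.05. The epithelium had the higher level for 3431 of them (23.1%) and the stroma for 3666 (24.6%). A gene list has to be read against these shares. With a difference of at least 2-fold besides, 1076 genes (7.23%) were higher in epithelium and 1332 (8.95%) in stroma. At 8-fold or more the balance turned, with 99 genes higher in epithelium and 11 in stroma. The signal of the other compartment was uneven too, at 17.1% for fibroblast markers in epithelium and 6.61% for columnar markers in stroma. Its part in the unequal counts of large folds was not tested. The middle of the distribution lay near 0, with a median log2 difference (epithelium minus stroma) of -0.04 and quartiles of -0.42 and 0.34. Values written with ± below are this difference for 1 gene with the SE of the edgeR fit, unless an SD is named. For 2229 genes (15.0%) the 7 epithelium and 7 stroma levels did not overlap. The split of calls depended on the scaling, since 48.3% of calls were higher in epithelium with TMM, 32.7% with upper-quartile scaling, 33.4% with limma on the deposited Q3 values and 21.3% with library size alone. Those scalings moved the median difference of all genes to -0.19, -0.16 and -0.34, so differences here are relative to a centre that TMM sets.

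Among genes alike in all 7 mice, Fxyd4, a small regulator of the sodium pump, showed the largest difference toward epithelium. It ran from 232 to 1215 CPM (median 778) in epithelium and from 18.1 to 79.0 CPM (median 25.2) in stroma, a log2 difference of 4.51 ± 0.25 (± SE, edgeR adjusted p = 1.6e-07). Wfdc2, a secreted protein of mucosal surfaces, followed at 296 to 886 CPM in epithelium and 13.7 to 55.6 CPM in stroma, with medians of 456 and 20.1 (4.44 ± 0.19, adjusted p = 6.1e-08). Gsto1, a glutathione transferase, ran 1599 to 8823 CPM in epithelium and 80.5 to 322 CPM in stroma, with medians of 3403 and 182 (4.21 ± 0.34). The compartments did not overlap for any of these. The other genes of the top 10 were Plet1 (4.29 ± 0.32), Bcat1, an enzyme of branched-chain amino acid breakdown (4.22 ± 0.24), the ubiquitin ligase gene Rnf128 (4.22 ± 0.26), Fxyd3 (4.08 ± 0.31), the unnamed target LOC118567918 (4.09 ± 0.28), and the keratins Krt8 and Krt19, which are checks.

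Toward stroma, Aspg, an asparaginase, showed the largest difference at -3.91 ± 0.28 (adjusted p = 4.6e-07), from levels of 17.5 to 74.5 CPM in epithelium and 174 to 1587 CPM in stroma, with medians of 33.2 and 646. The stroma range spanned almost a decade, yet its lowest mouse lay above the highest epithelium. Igfbp5, which binds insulin-like growth factors, ran from 33.5 to 94.8 CPM (median 71.1) in epithelium and from 252 to 1225 CPM (median 488) in stroma, a difference of -3.20 ± 0.22. The matrix genes among the 10 were Aebp1 (-3.32 ± 0.21), Matn2 (-3.30 ± 0.17), Dpt (-3.15 ± 0.17), Spon2 (-3.08 ± 0.22) and Tnxb (-3.03 ± 0.20). Lsp1, a leukocyte actin-binding protein (-3.24 ± 0.23), and the anion transporter Slc26a7 (-3.04 ± 0.30) were the others without overlap. Ctla2a, an inhibitor of cathepsin L, differed by -3.40 ± 0.26 with the same sign in 7 of 7 mice, but it varied so widely among mice (51.3 to 582 CPM in epithelium and 294 to 8260.0 CPM in stroma, with medians of 85.7 and 1422) that the compartments overlapped.

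Transcription factors divided the compartments sharply. Of 16 epithelial transcription and splicing factors, 15 were tested, 12 were higher in epithelium and 0 in stroma, with a median difference of 2.44 against -0.04 over all genes. Esrp1, which directs epithelial splicing, ran from 141 to 237 CPM (median 189) in epithelium and from 13.7 to 22.6 CPM (median 18.9) in stroma (3.31 ± 0.16, adjusted p = 7e-08). Elf3 and Ehf, ETS factors of epithelia, differed by 3.75 ± 0.34 and 3.18 ± 0.26. Grhl2, which sustains junction genes, differed by 2.67 ± 0.16, while its relatives Grhl1 (-0.09 ± 0.18) and Grhl3 (-0.20 ± 0.16) did not pass the test. Sox17 (3.11 ± 0.22), Pax8 (3.00 ± 0.21) and Foxa2 (2.08 ± 0.22), regulators of Müllerian epithelium and glands, were all higher in epithelium.

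Mesenchymal transcription factors were the mirror image, with 1 exception. Of 20 such genes, 19 were tested, 16 were higher in stroma and 1 in epithelium, with a median of -1.71. Zeb2, a repressor of epithelial genes, ran from 24.7 to 32.8 CPM (median 31.0) in epithelium and from 159 to 286 CPM (median 184) in stroma (-2.72 ± 0.14, adjusted p = 8.6e-08). Its partners in that role, Zeb1 (-1.82 ± 0.14), Snai1 (-1.71 ± 0.17) and Snai2 (-1.68 ± 0.18), were higher in stroma too. Hand2, through which progesterone restrains stromal growth factors, differed by -2.25 ± 0.18, from levels of 16.6 to 35.3 CPM in epithelium and 57.2 to 229 CPM in stroma, with medians of 22.6 and 101. The exception was Gata2, a factor that works with the progesterone receptor, at 115 to 471 CPM in epithelium and 63.5 to 92.7 CPM in stroma, with medians of 251 and 84.8 (1.57 ± 0.23). None of its epithelium values fell within the stroma range.

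The Snai and Zeb repressors are known to bind the hexamer CAGGTG, an E-box that other helix-loop-helix factors also bind, in promoters of epithelial genes. The letters were searched for, as CAGGTG or CACCTG so as to cover both strands, in RefSeq promoter windows of 300 bases (250 before the start of the gene and 50 after it, build GRCm38.p6). A window was at hand for 11780 of the 14881 genes tested. The windows of 3 genes are shown because these genes are far higher in epithelium and their windows hold the hexamer more than once, with the hexamer in capitals and each sequence in the direction of its gene.

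Epcam: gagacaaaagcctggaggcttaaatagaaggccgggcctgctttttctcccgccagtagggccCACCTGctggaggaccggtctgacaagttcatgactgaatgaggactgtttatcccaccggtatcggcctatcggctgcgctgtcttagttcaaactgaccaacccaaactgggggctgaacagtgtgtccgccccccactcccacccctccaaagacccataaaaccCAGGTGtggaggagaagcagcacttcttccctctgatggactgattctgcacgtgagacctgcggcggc

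Wfdc2: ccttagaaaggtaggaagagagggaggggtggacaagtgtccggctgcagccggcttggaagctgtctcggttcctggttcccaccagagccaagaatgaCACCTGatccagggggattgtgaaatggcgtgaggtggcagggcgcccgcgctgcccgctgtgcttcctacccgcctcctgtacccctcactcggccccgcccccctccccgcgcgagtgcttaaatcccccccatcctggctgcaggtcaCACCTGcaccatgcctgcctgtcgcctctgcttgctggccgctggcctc

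Rab25: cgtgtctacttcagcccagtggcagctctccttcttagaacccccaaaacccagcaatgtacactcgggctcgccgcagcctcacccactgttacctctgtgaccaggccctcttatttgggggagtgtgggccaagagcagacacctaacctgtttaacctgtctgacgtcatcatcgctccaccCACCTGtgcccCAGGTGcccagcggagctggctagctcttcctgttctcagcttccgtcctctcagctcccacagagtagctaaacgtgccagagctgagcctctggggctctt

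The Epcam window lies at chr17:87635729-87636028 on the plus strand and holds the hexamer 187 and 19 bases before the start. The Wfdc2 window, chr2:164562465-164562764 on the plus strand, holds it 150 bases before the start and at base 2 after it, counting the start as base 1. Rab25, a small GTPase of apical recycling whose level differed by 2.53 ± 0.20, has its window at chr3:88548230-88548529 on the minus strand, with copies 64 and 53 bases before the start. A match is a description of these letters and not a binding site.

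The share of promoters with this hexamer changed with the size of the difference. It was 20.0% of the 27025 promoters in the whole RefSeq table and 18.4% (2172) of those of the genes tested. Among genes at least 8-fold higher in epithelium it was 53.5% (38 of 71), among those 4-fold to 8-fold higher 36.2% (54 of 149), and among those 2-fold to 4-fold higher 28.2% (168 of 595). Genes higher in epithelium by less than 2-fold (18.0%), genes with no call (17.9%) and genes higher in stroma by less than 2-fold (17.4%) stood near the share of all genes. Genes 2-fold to 4-fold higher in stroma had 13.2%, and those at least 4-fold higher 14.4% (27 of 187). Lists of one compartment differed among themselves. Of the epithelial lists, 8 of 9 columnar markers with a window held it and 9 of 18 tight junction and polarity genes, but 2 of 8 adherens junction and desmosome genes. Of the stromal lists, 0 of 5 fibroblast markers and 0 of 6 endothelial markers held it, but 4 of 10 T and NK cell markers. The related hexamer CAGCTG, which reads the same on both strands, ran from 14.1% at the epithelial end to 21.9% at the stromal end, around 15.3% over all genes tested. For 2 further E-box hexamers the ends were closer to all genes tested, with 8.45% at the epithelial end, 4.81% at the stromal end and 9.53% overall for CACGTG, and 8.45%, 8.02% and 9.18% for CATGTG (or CACATG on the other strand). The windows of the 8-fold genes were slightly poorer in G and C than those of all genes tested, with medians of 56.3% and 60.0%. These shares rest on different genes at each size and were not tested.

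**Figure D2:**
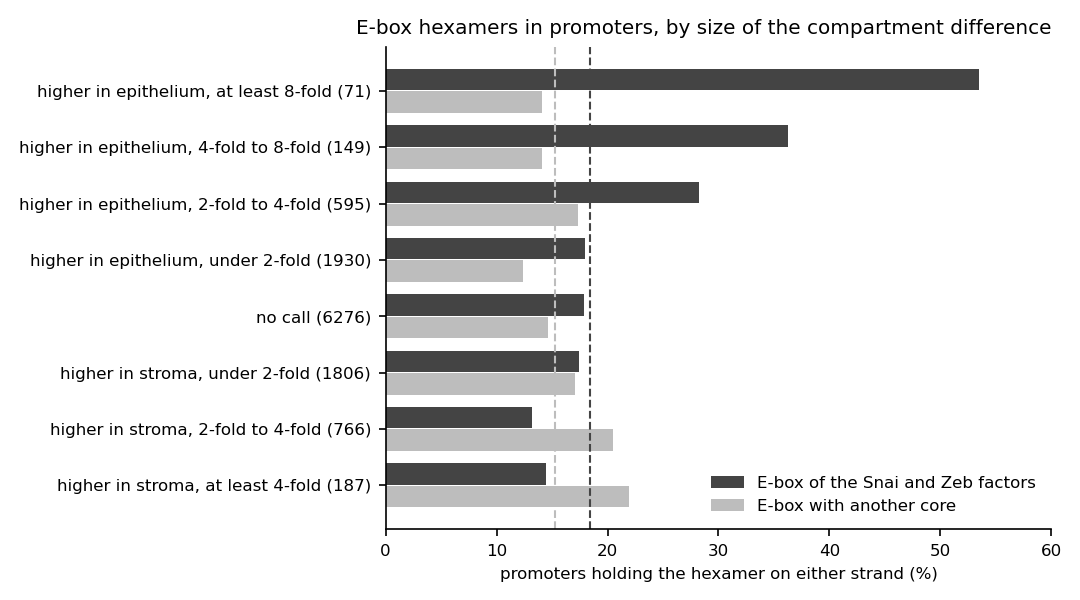
Share of promoters (%) holding an E-box hexamer on either strand, for genes grouped by their compartment difference, with the number of promoters in brackets; dark bars are the hexamer of the Snai and Zeb factors, light bars the related hexamer with another core, and dashed lines the shares over all genes tested. The dark bars go from 53.5% for genes at least 8-fold higher in epithelium to 14.4% for those at least 4-fold higher in stroma, while the light bars stay between 12.4 and 21.9%.

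Hox genes split by cluster. Of the Hoxb genes on chromosome 11, 7 were tested and all 7 were higher in epithelium by at least 2-fold, between 1.25 (Hoxb2) and 3.03 (Hoxb6). Hoxb6 ran from 271 to 418 CPM (median 316) in epithelium and from 29.8 to 58.8 CPM (median 39.5) in stroma (adjusted p = 6.1e-08). Hoxb4, Hoxb5 and Hoxb8 differed by 2.25 ± 0.15, 2.32 ± 0.18 and 2.56 ± 0.14, each with all 7 mice alike and no overlap. The Hoxd genes on chromosome 2 went the other way, with 6 of 7 higher in stroma and all 6 by at least 2-fold (median of the 7, -2.17). Hoxd4 showed 16.2 to 34.1 CPM in epithelium and 101 to 229.8 CPM in stroma, with medians of 24.7 and 156 (-2.78 ± 0.17), and Hoxd10 13.9 to 31.5 CPM in epithelium and 57.2 to 153 CPM in stroma, with medians of 22.6 and 99.6 (-2.24 ± 0.13). In the Hoxa cluster on chromosome 6, 8 of 9 were higher in stroma, but 4 of these by less than 2-fold. Hoxa10, needed for stromal responses to progesterone, ran from 18.6 to 91.7 CPM (median 74.3) in epithelium and from 119 to 781 CPM (median 317) in stroma (-2.81 ± 0.17), and Hoxa11 differed by -2.52 ± 0.16. The Hoxc genes on chromosome 15 differed least, with 5 of 6 higher in stroma and 1 of them, Hoxc6 (-1.23 ± 0.26), by 2-fold. Of the 13 genes of the Müllerian patterning list called higher in stroma, 2, Hoxa13 and Hoxc8, had their higher level under 2 times the negative level. Msx1, a homeobox gene of the receptive epithelium, stood at the epithelial end with 137 to 947 CPM in epithelium and 15.3 to 69.5 CPM in stroma, with medians of 722 and 24.8 (3.76 ± 0.23), and Msx2 followed at 1.46 ± 0.21. Pax2, another Müllerian factor, was chosen after its value was seen and differed by 3.13 ± 0.17.

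Genes that seal and polarise the epithelium were higher there. Of 24 tight junction and polarity genes, 22 were tested, and 18 were higher in epithelium and 2 in stroma (median 1.86). Cldn3 and Cldn7, claudins of simple epithelia, ran from 216 to 727 CPM (median 377) and from 245 to 394 CPM (median 267) in epithelium, and stayed at or below 52.3 and 27.3 CPM in stroma. Their differences were 3.94 ± 0.17 and 3.78 ± 0.17. The adaptors Tjp3 (3.04 ± 0.35) and Cgn (2.92 ± 0.17) and the leaky-pore claudin Cldn2 (2.54 ± 0.39) were higher as well. The 2 genes higher in stroma were Cldn5, the claudin of blood vessels (-1.41 ± 0.25), and the polarity scaffold Pard3 (-0.41 ± 0.11). Adherens junction and desmosome genes gave 15 of 20 tested higher in epithelium and 2 in stroma (median 1.23), led by the cadherin Cdh1 (3.87 ± 0.18), the desmosomal linker Dsp (3.1 ± 0.17) and Dsg2 (2.89 ± 0.15). Cdh11, the cadherin of mesenchymal cells, was higher in stroma, with 28.7 to 69.5 CPM in epithelium and 184 to 450.0 CPM in stroma, with medians of 57.2 and 241 (-2.39 ± 0.17), as was Nectin1 (-0.63 ± 0.12). Genes of the apical membrane and its trafficking were higher in epithelium in 13 of 15 tested and in stroma in 0 (median 2.63), among them Prom1 (3.93 ± 0.40), the membrane proteases Tmprss2 (3.55 ± 0.21) and St14 (3.41 ± 0.25), and the cortical linker Ezr (2.88 ± 0.13).

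Transport and secretion followed the same side with more spread among mice. Of 25 ion and fluid transport genes, 21 were tested, and 14 were higher in epithelium and 2 in stroma (median 1.64). Atp1b1, the beta subunit of the sodium pump, ran from 189 to 822 CPM (median 451) in epithelium and from 15.3 to 51.4 CPM (median 32.6) in stroma (3.87 ± 0.26). The water channel Aqp5 differed by 3.19 ± 0.18, the carbonic anhydrases Car2 and Car12 by 3.39 ± 0.31 and 2.88 ± 0.31, and the chloride channel Cftr by 2.02 ± 0.28. Aqp1, the water channel of vessels, was higher in stroma (-2.09 ± 0.28), and so was Aqp9 (-0.80 ± 0.17). Of 15 secretory and defence genes, 10 were higher in epithelium (median 2.73). Of 7 gland genes tested, 4 were higher in epithelium and 0 in stroma, with Sox9, a factor of gland progenitors, at 2.92 ± 0.22. Pigr, which carries antibodies into the lumen, ran from 62.6 to 1510.3 CPM (median 306) in epithelium and from 7.60 to 38.4 CPM (median 19.6) in stroma (3.79 ± 0.44). The mucins Muc1 (3.50 ± 0.37) and Muc4 (2.73 ± 0.50) were higher in epithelium, while Muc16 (-0.07 ± 0.19) did not pass the test. Slpi (-0.41 ± 0.14) and Tff3 (-0.42 ± 0.16), secreted protectors of mucosa, were called slightly higher in stroma at levels of at most 22.8 and 27.3 CPM, and both calls were lost with DESeq2 and, for most choices of mouse, with 1 mouse left out. Their values were then -0.36 to -0.47 for Tff3 and -0.36 to -0.42 for Slpi. Of 14 conjugation enzymes tested, 9 were higher in epithelium, with Sult1d1 (3.75 ± 0.24) and Gpx2 (2.78 ± 0.18) behind Gsto1, and 1, Gstt1 (-2.28 ± 0.26), in stroma.

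The matrix was almost wholly on the stromal side. Of 15 interstitial collagen genes tested, 13 were higher in stroma and 0 in epithelium (median -2.27), from Col5a1 (-2.70 ± 0.16) and Col1a1 (-2.55 ± 0.19) to Col11a1 (-0.85 ± 0.19). Col12a1 (-0.39 ± 0.41) and Col7a1, the anchoring-fibril collagen (-0.70 ± 0.32), did not pass the test. Elastic fibre genes were higher in stroma in 17 of 19 (median -2.0), led by Ltbp4 (-2.93 ± 0.21), which binds latent TGF-beta, and by the microfibril genes Mfap4 (-2.69 ± 0.25) and Mfap5 (-2.66 ± 0.13). Of 9 small leucine-rich proteoglycans, 7 were higher in stroma, 2 of them with a higher level under 2 times the negative level.

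Basement membrane genes divided between the compartments, laminins above all. Of 10 laminin chains tested, 4 were higher in epithelium and 5 in stroma. Lama5, a chain of epithelial and vascular basement membranes, ran from 113 to 459 CPM (median 210.1) in epithelium and from 27.3 to 52.0 CPM (median 40.8) in stroma (2.44 ± 0.18). Lamb3 (1.19 ± 0.27) and Lama3 (1.12 ± 0.31) were higher in epithelium too, Lama3 in 4 of 7 mice with a call that limma and library-size scaling did not make. Lama2, the chain of muscle and mesenchyme, took the opposite course at 15.2 to 37.2 CPM in epithelium and 81.0 to 202 CPM in stroma, with medians of 27.9 and 119 (-2.33 ± 0.19), with Lamb1 (-1.84 ± 0.17) and Lama4 of vessels (-1.74 ± 0.15). Of the other basement membrane genes, 9 of 11 were higher in stroma (median -1.57), including Col4a1 (-2.48 ± 0.16), Col4a2 (-2.48 ± 0.15) and Nid1 (-2.59 ± 0.15). The single one higher in epithelium was Agrn, which encodes agrin (1.42 ± 0.20). Integrin chains, the receptors for these proteins, gave 6 of 17 higher in epithelium and 7 in stroma. Itgb4 and Itga6, which pair as the laminin receptor of hemidesmosomes, differed by 1.93 ± 0.20 and 1.18 ± 0.30, and Itga1 and Itga11, collagen-binding chains, by -1.25 ± 0.16 and -1.17 ± 0.17. Among proteases and inhibitors 12 of 16 were higher in stroma, 1 of them with its higher level under 2 times the negative level, and 2 in epithelium, with Mmp2 at -2.79 ± 0.18, its inhibitor Timp2 at -2.83 ± 0.21, and on the other side Mmp15 (1.55 ± 0.13) and Mmp7, the epithelial matrilysin (2.80 ± 0.62, higher in 6 of 7 mice).

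**Figure D3:**
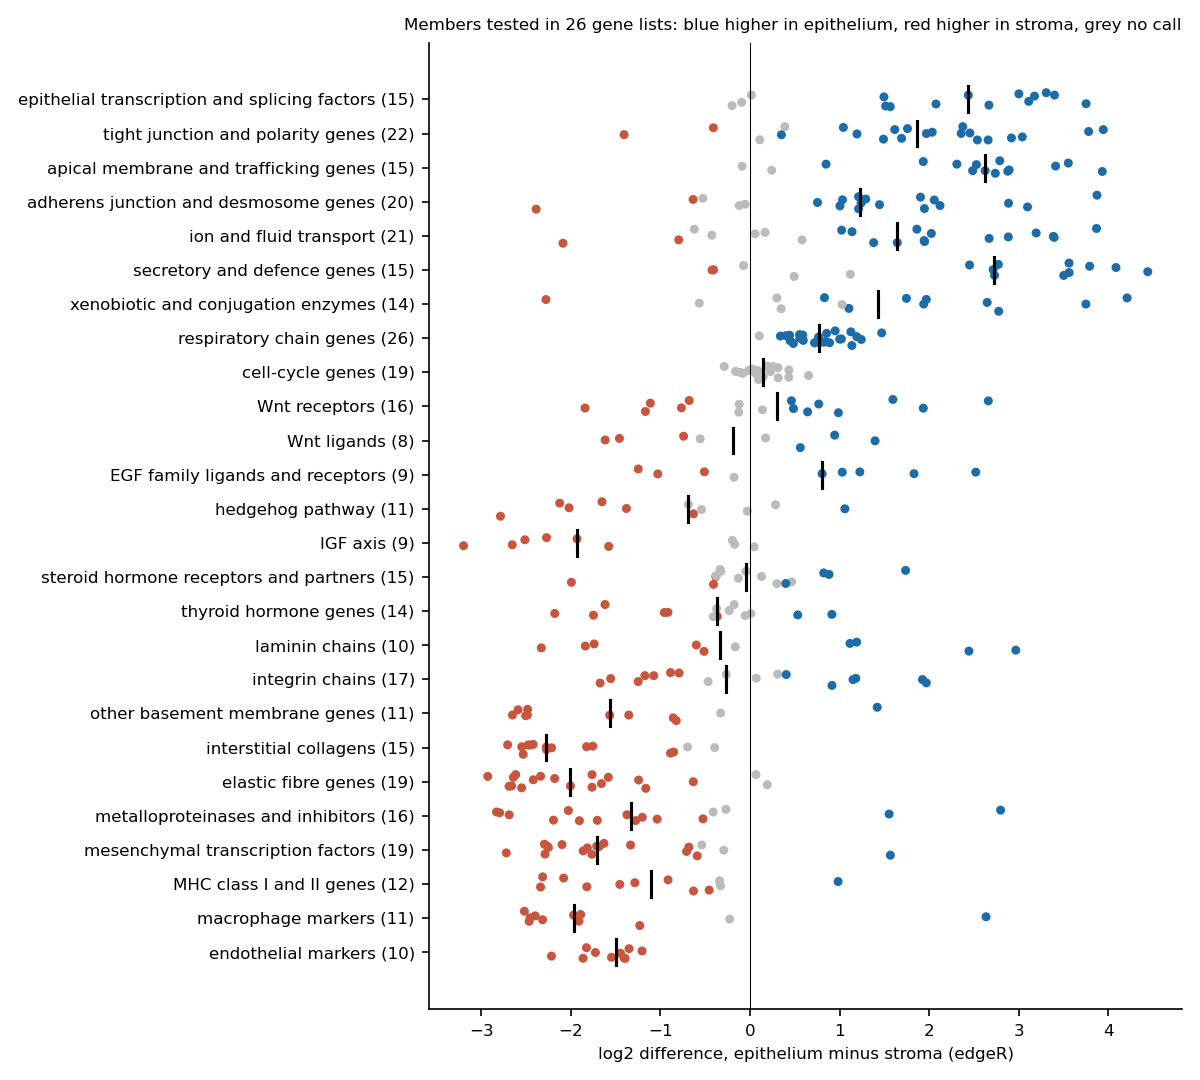
Log2 difference (epithelium minus stroma) of each tested gene in 26 lists, with blue points called higher in epithelium, red points called higher in stroma, grey points not called, and a black bar at the list's median. Epithelial factors, junction and apical genes lie to the right, matrix, mesenchymal, macrophage and endothelial genes to the left, and cell-cycle genes around 0.

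In the hedgehog pathway, Ihh, the ligand, ran from 61.4 to 217 CPM (median 146) in epithelium and from 49.5 to 65.9 CPM (median 56.2) in stroma (1.06 ± 0.22, adjusted p = 0.0021). All 7 mice had more in epithelium, though the 2 lowest epithelium levels lay within the stroma range. Of the other 10 pathway genes tested, 6 were higher in stroma and 0 in epithelium. Gli1, a target as well as an effector of the pathway, stood at 6.76 to 42.2 CPM in epithelium and 9.94 to 241 CPM in stroma, with medians of 17.9 and 126 (-2.12 ± 0.25). The co-receptor Gas1 differed by -2.78 ± 0.20, and the effectors Gli2 and Gli3 by -2.02 ± 0.17 and -1.65 ± 0.14. The receptor Ptch1, itself a target, had 34.2 to 73.7 CPM in epithelium and 21.2 to 225 CPM in stroma, with medians of 56.5 and 119, and did not pass the test (-0.69 ± 0.32, adjusted p = 0.093), although it was called higher in stroma with the upper-quartile and library-size scalings and with either WT4 (-0.89, edgeR adjusted p = 0.0373) or WT5 (-0.95, adjusted p = 0.0149) left out.

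Among fibroblast growth factors, Fgf10 (-1.19 ± 0.17) and Fgf7 (-0.83 ± 0.17), made by mesenchyme for epithelia, were higher in stroma. Their receptor gene Fgfr2 was higher in epithelium in 6 of 7 mice (2.33 ± 0.45), at 34.4 to 318 CPM in epithelium and 6.08 to 39.4 CPM in stroma, with medians of 71.1 and 27.7. Fgfr1, the receptor of mesenchymal cells, was higher in stroma (-1.78 ± 0.19), and the ligand Fgf18 in epithelium (1.10 ± 0.22). Hgf, a stromal factor that acts on epithelia, ran from 9.37 to 24.8 CPM (median 12.7) in epithelium and from 26.3 to 81.6 CPM (median 70.3) in stroma (-2.18 ± 0.21). Its receptor gene Met was higher in epithelium (1.09 ± 0.25, 6 of 7 mice). Pdgfa, a ligand of the platelet-derived growth factor family, was higher in epithelium, with 20.5 to 45.9 CPM in epithelium and 4.97 to 20.0 CPM in stroma, with medians of 28.3 and 10.9 (1.42 ± 0.18), while the receptors Pdgfra and Pdgfrb were higher in stroma, with differences of -2.70 ± 0.15 and -2.35 ± 0.18. Of 17 further ligands tested, Pdgfa was the 1 higher in epithelium and 10 were higher in stroma, with Cxcl12 (-2.64 ± 0.21) and Hgf the farthest. Lif, which the receptive uterus needs, gave -0.01 ± 0.19, but its receptor genes Lifr (1.43 ± 0.23) and Il6st (1.08 ± 0.17) were higher in epithelium.

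Of 8 Wnt ligands tested, 3 were higher in epithelium and 3 in stroma. Wnt7a, an epithelial ligand needed for gland formation, was higher in epithelium in 6 of 7 mice at 11.0 to 73.6 CPM in epithelium and 7.97 to 16.7 CPM in stroma, with medians of 24.8 and 14.9 (1.4 ± 0.29), a call that limma did not make. Wnt9a (-1.62 ± 0.15) and Wnt16 (-1.46 ± 0.18) were higher in stroma, and Wnt4 (0.17 ± 0.28) and Wnt5a (-0.56 ± 0.24) did not pass the test. Without WT3, Wnt5a was called higher in stroma (-0.77, edgeR adjusted p = 0.0067), as it was with limma and with both other scalings. Of 16 receptor genes tested, 8 were higher in epithelium, with Fzd6 (2.66 ± 0.18) and Lgr4 (1.93 ± 0.18) first, and 5 in stroma, with Fzd2 (-1.84 ± 0.14) first, 1 of these 5 with its higher level under 2 times the negative level. This balance turned with library-size scaling, to 4 in epithelium and 7 in stroma, and with limma, to 4 and 6. It was level with upper-quartile scaling, at 5 and 5, and stayed at 8 and 5 with DESeq2. Of 13 Wnt modulators and targets, 9 were higher in stroma, all of them secreted proteins, with Sfrp4 (-2.87 ± 0.30) and Sfrp2 (-2.31 ± 0.24) farthest. The membrane ubiquitin ligase genes Rnf43 (0.91 ± 0.20) and Znrf3 (0.66 ± 0.23), which remove Wnt receptors from the cell surface, were higher in epithelium. The call of Znrf3 was lost with limma, with upper-quartile and library-size scaling, without the pairing of mice, and with WT1, WT2, WT3 or WT8 left out.

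Insulin-like growth factor genes were stromal throughout or did not pass the test. Of 9 tested, 6 were higher in stroma and 0 in epithelium (median -1.93). Igf1, a mediator of estrogen's growth signal, ran from 16.3 to 213 CPM (median 88.5) in epithelium and from 69.6 to 749 CPM (median 374) in stroma (-2.27 ± 0.20), with overlap across mice but not within any mouse. Its receptor gene Igf1r gave 0.05 ± 0.14. In the TGF-beta family, Tgfb2 (-1.57 ± 0.18), the antagonist Fst (-1.27 ± 0.21), Bmp4 (-0.84 ± 0.16) and the receptors Tgfbr2 (-1.66 ± 0.14) and Tgfbr3 (-2.44 ± 0.22) were higher in stroma. Of the 15 ligands and antagonists tested, 0 were higher in epithelium and 8 in stroma, 1 of these 8 with its higher level under 2 times the negative level. Among the 9 tested genes of the EGF family, the receptors Erbb3 (2.52 ± 0.19) and Erbb2 (1.83 ± 0.17) and the ligand Tgfa (1.03 ± 0.15) were higher in epithelium, and Egfr (-1.03 ± 0.17) and the ligand Nrg1 (-1.25 ± 0.14) in stroma. Notch genes were higher in stroma in 7 of 12, with the pericyte receptor Notch3 first (-1.30 ± 0.16), and in epithelium in 2, Notch1 (0.78 ± 0.18) and the target Hes1 (1.86 ± 0.15). The ephrin Efnb2 was higher in epithelium, with 149 to 433 CPM in epithelium and 19.9 to 68.4 CPM in stroma, with medians of 320.0 and 44.5 (2.74 ± 0.23).

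Steroid receptors differed in their balance between the layers. Esr1, the estrogen receptor, ran from 355 to 506 CPM (median 426) in epithelium and from 112 to 375 CPM (median 238) in stroma, and was higher in epithelium in all 7 mice (0.88 ± 0.17, adjusted p = 0.0011), with slight overlap. Pgr, the progesterone receptor, had 39.2 to 324 CPM in epithelium and 37.3 to 393 CPM in stroma, with medians of 88.5 and 152, and did not pass the test (-0.33 ± 0.23, adjusted p = 0.24). The value was larger in stroma in 5 of 7 mice, and limma and library-size scaling called it higher there. Fkbp4, a chaperone of the progesterone receptor, was higher in epithelium, with 324 to 658 CPM in epithelium and 68.2 to 250 CPM in stroma, with medians of 415 and 113 (1.74 ± 0.14). Over all 15 genes of the list, 4 were higher in epithelium, 3 in stroma and 8 not called, with a median of -0.04 like that of all genes.

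Thyroid hormone genes leaned to the stroma. Thra was higher there in 7 of 7 mice, at 36.3 to 56.4 CPM in epithelium and 51.7 to 116 CPM in stroma, with medians of 46.0 and 86.1 (-0.96 ± 0.14, adjusted p = 0.00013). Thrb, the other receptor gene, ran 8.95 to 14.6 CPM in epithelium and 8.70 to 22.8 CPM in stroma, with medians of 11.4 and 15.4, and did not pass the test (-0.37 ± 0.16), but it was called higher in stroma with upper-quartile and library-size scaling. Klf9, a transcription factor that thyroid hormone induces, ran from 35.8 to 66.4 CPM (median 50.5) in epithelium and from 113 to 199 CPM (median 145) in stroma, with every stroma level above every epithelium level (-1.62 ± 0.17). Dio2, which activates the hormone, was higher in stroma (-2.18 ± 0.20). Dio1, another deiodinase, was higher in epithelium at low levels (15.6 to 34.9 CPM in epithelium and 6.52 to 19.9 CPM in stroma, with medians of 26.2 and 13.2, 0.91 ± 0.23), a call lost with limma and with library-size scaling. Altogether 6 of 14 genes tested were higher in stroma and 2 in epithelium, the other being the corepressor Ncor1 (0.53 ± 0.10), whose call was lost with library-size scaling as well, where 0 genes of the list were higher in epithelium and 10 in stroma.

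Of 14 retinoid genes 2 were higher in epithelium, 3 in stroma and 9 not called, and of 13 prostaglandin genes 5 were higher in epithelium and 4 in stroma, where 23.1% and 24.6% of all genes were. Rdh10, which begins retinoic acid synthesis, was higher in epithelium (3.1 ± 0.19), and Aldh1a2, which completes it, in stroma (-2.05 ± 0.21), as were Cyp26b1, which degrades retinoic acid (-1.28 ± 0.32), and the receptor Rarb (-0.61 ± 0.14). Pla2g4a, which frees arachidonic acid (2.5 ± 0.27), and Ptgs1, a cyclooxygenase (1.39 ± 0.28), were higher in epithelium, whereas Ptgs2 (0.41 ± 0.36) did not pass the test. The prostacyclin synthase gene Ptgis (-0.81 ± 0.18), the thromboxane synthase gene Tbxas1 (-1.25 ± 0.22) and Ptges (-0.92 ± 0.21) were higher in stroma.

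Respiratory chain genes were higher in epithelium almost without exception, and by little. Of 26 tested, 25 were higher there and 0 in stroma, with a median of 0.77, and with library-size scaling 18 were called, with a median of 0.47. Cox5a, a subunit of cytochrome oxidase, ran from 168 to 326 CPM (median 298) in epithelium and from 79.5 to 133 CPM (median 93.4) in stroma (1.47 ± 0.14), and Ndufv1 (0.10 ± 0.11) did not pass the test. No cell-cycle gene passed with edgeR in either direction (0 of 19 tested, median 0.15). Their estimates ranged from -0.29 ± 0.34 (E2f1) to 0.65 ± 0.26 (Mcm2), and Mki67 gave -0.11 ± 0.44. At an unadjusted p under 0.05 there was 1 of the 19, limma and the other scalings called 0, and DESeq2 called 1, Mcm2. The median of the list changed sign with upper-quartile scaling (-0.01) and library-size scaling (-0.15).

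Vessel and immune genes belonged mostly to the stroma. All 10 endothelial markers were higher there (median -1.50), with Cdh5, the endothelial cadherin, at 14.4 to 35.3 CPM in epithelium and 70.1 to 167 CPM in stroma, with medians of 24.9 and 104 (-2.22 ± 0.13), and so were all 7 pericyte markers, with Rgs5 first (-2.51 ± 0.18). Of 8 smooth muscle markers, 7 were higher in stroma, Des (-2.55 ± 0.17) and Mylk (-2.5 ± 0.16) most. Macrophage markers were higher in stroma in 9 of 11 tested, for instance the growth factor receptor Csf1r (-2.46 ± 0.21) and the complement gene C1qa (-2.52 ± 0.22). Cd14, a receptor for bacterial lipopolysaccharide on that list, went the other way at 103 to 441 CPM in epithelium and 16.7 to 52.2 CPM in stroma, with medians of 197 and 31.9 (2.63 ± 0.20), with no overlap. T and NK cell markers were higher in stroma in 9 of 11, led by Il2rb (-1.96 ± 0.18) and Nkg7 (-1.60 ± 0.14), 1 of them with its higher level under 2 times the negative level. Of 12 antigen presentation genes, 9 were higher in stroma, class II genes first, with H2-Ab1 at -2.34 ± 0.15 and Cd74 at -2.08 ± 0.19, while the peptide-loading gene Tapbp was higher in epithelium (0.98 ± 0.12).

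Chemokines and complement were split. Cxcl17 (3.53 ± 0.41) and Ccl28 (2.99 ± 0.36), chemokines of mucosal surfaces, Cxcl15 (2.25 ± 0.46) and Cx3cl1 (1.60 ± 0.24) were higher in epithelium. Ccl8 (-2.82 ± 0.33), Ccl11 (-2.21 ± 0.38), which draws eosinophils, and Ccl5 (-1.84 ± 0.20) were among the 8 of 17 higher in stroma. The complement genes C3 (3.56 ± 0.83), Cfb (2.71 ± 0.37) and the membrane protector Cd55 (1.70 ± 0.15) were higher in epithelium, and C1s1 (-2.62 ± 0.16), the inhibitor Serping1 (-2.33 ± 0.23), C1ra (-2.19 ± 0.19) and C4b (-1.69 ± 0.17) in stroma. Markers of squamous epithelium mostly failed the filter, with 5 of 17 kept and no tested member at 2-fold. Foxj1, the master regulator of cilia, was higher in epithelium at low levels (16.1 to 67.6 CPM in epithelium and 7.46 to 23.4 CPM in stroma, with medians of 31.1 and 12.8, 1.15 ± 0.25), but the other ciliated cell markers tested were not, and Tppp3 was higher in stroma (-1.84 ± 0.21).

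The sums of the typical gene varied less among mice in epithelium than in stroma, but more genes varied widely in epithelium. The sums were of unlike size, with 2 to 6 regions per mouse in epithelium and 1 to 3 in stroma, and mostly fewer counts in stroma. How far this sampling set the SDs was not tested. The SD of log2 CPM over the 7 mice had a median of 0.31 in epithelium and 0.36 in stroma, and it exceeded 1 for 320 genes in epithelium against 170 in stroma, and for 33 in both. Lcn2, an iron-withholding defence protein, had the largest SD, with 61.5 CPM in WT1, 31.1 in WT2, 15.5 in WT3, 6970.3 in WT4, 15199.9 in WT5, 6684 in WT6 and 2755 in WT8. WT4, WT5, WT6 and WT8 thus stood far above the other 3 mice. C3 set the same 4 mice above the other 3, with 116 CPM in WT1, 50.3 in WT2, 24.8 in WT3, 5148 in WT4, 12254 in WT5, 5652 in WT6 and 1090.0 in WT8. Aoc1, an amine oxidase, had 14.9 CPM in WT1, 11.1 in WT2, 16.7 in WT3, 2122 in WT4, 2964 in WT5, 2479 in WT6 and 347 in WT8, and Ltf, an estrogen-induced secretion, 417 CPM in WT1, 132 in WT2, 23.6 in WT3, 1343 in WT4, 6105 in WT5, 3349 in WT6 and 1706 in WT8. Of the variance over the 27 epithelium regions, 95.7% lay between mice for Lcn2, 91.5% for C3, 92.0% for Aoc1 and 90.8% for Ltf. Regions of a mouse differed more for Prap1, also among the 5 genes of largest SD, where 35.7% lay between mice, and for Muc4, a membrane mucin gene, where it was 67.8%. For these genes the compartment difference holds on average with a large error (Lcn2 3.56 ± 0.87, C3 3.56 ± 0.83), and WT3 had less of both in epithelium than in stroma. In the 5 mice with at least 2 regions of each compartment neither passed the test (Lcn2 2.63, edgeR adjusted p = 0.0808, and C3 2.83, adjusted p = 0.0629).

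A second set of epithelial genes was low in WT4, WT5 and WT6 and high in the rest. Calb1, a calcium-binding protein, had 1108 CPM in WT1, 908 in WT2, 749 in WT3, 99.4 in WT4, 57.4 in WT5, 58.3 in WT6 and 380.2 in WT8. The chemokine gene Cxcl15 had 238 CPM in WT1, 312 in WT2, 215 in WT3, 25.0 in WT4, 19.7 in WT5, 25.8 in WT6 and 225 in WT8. The sums of both separated those 3 mice from the other 4 without overlap, but for Calb1 the estimated share of variance between mice over the 27 regions was 0%, against 88.0% for Ihh and 94.0% for Gstm7. Msx1 did so with 947 CPM in WT1, 915 in WT2, 873 in WT3, 184 in WT4, 137 in WT5, 200.1 in WT6 and 722 in WT8, and Ihh with 217 CPM in WT1, 198 in WT2, 146 in WT3, 64.1 in WT4, 61.4 in WT5, 70.5 in WT6 and 149 in WT8. Gstm7, a glutathione transferase, had 1219 CPM in WT1, 2299 in WT2, 472 in WT3, 28.1 in WT4, 17.4 in WT5, 27.9 in WT6 and 1428 in WT8. The stroma took part for some genes, since Hoxa10 in stroma was 551 CPM in WT1, 680.4 in WT2, 317 in WT3, 193 in WT4, 196 in WT5, 119 in WT6 and 781 in WT8, and in epithelium 74.3 CPM in WT1, 77.1 in WT2, 91.2 in WT3, 24.4 in WT4, 23.7 in WT5, 18.6 in WT6 and 91.7 in WT8. WT4, WT5 and WT6 were lowest in both layers. These 3 mice were aged 6.3 to 9.0 months and the others 4.0 to 6.3, with a mouse of 6.3 months in each set. The part of age in this was not tested, nor was that of cycle stage, which is not listed for single mice.

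**Figure D4:**
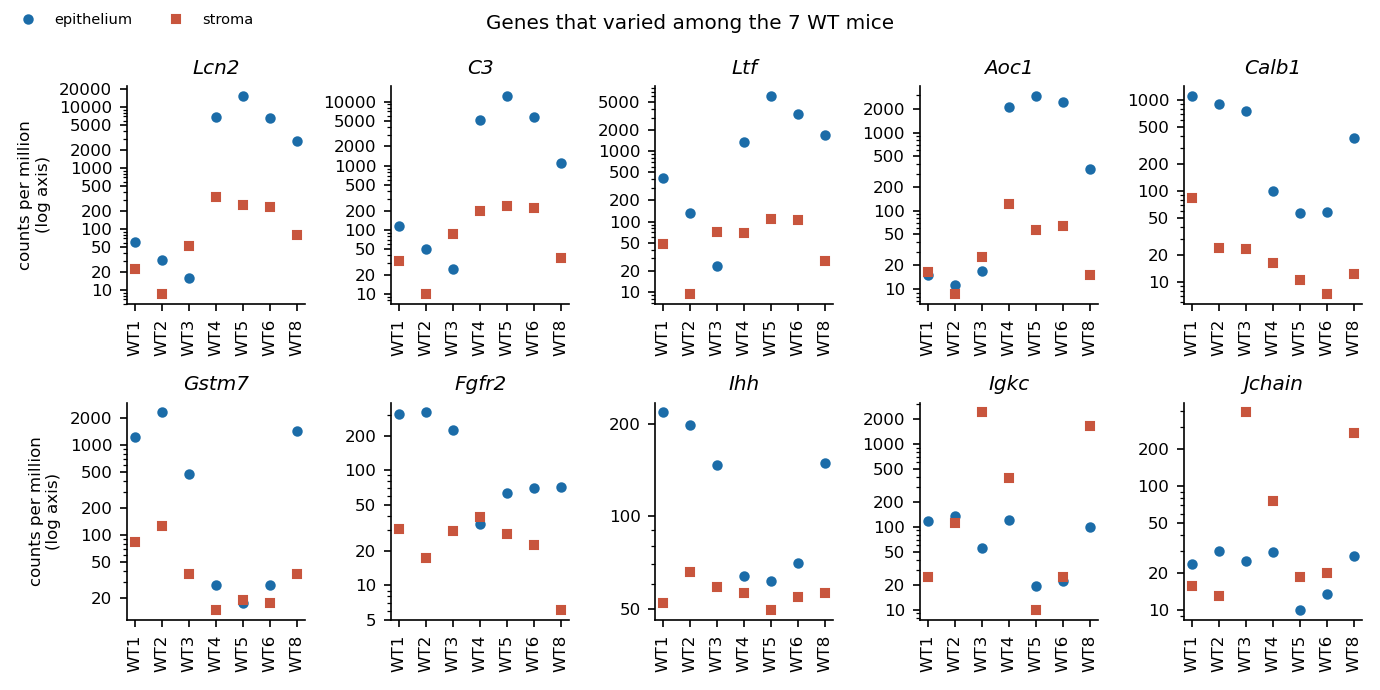
Levels of 10 genes in each WT mouse, in CPM on a log axis, in epithelium (blue circles) and stroma (red squares). Lcn2, C3 and Aoc1 are high in the epithelium of WT4, WT5, WT6 and WT8, Calb1 and Ihh are lowest there in WT4, WT5 and WT6, and Igkc and Jchain are highest in the stroma of WT3 and WT8.

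In stroma, antibody genes had the largest SD. Igkc, an immunoglobulin light chain, had 24.5 CPM in WT1, 112 in WT2, 2400.1 in WT3, 385 in WT4, 9.81 in WT5, 24.9 in WT6 and 1645 in WT8, and Igha, the heavy chain of IgA, 33.9 CPM in WT1, 84.8 in WT2, 2169 in WT3, 523 in WT4, 11.1 in WT5, 29.8 in WT6 and 1799 in WT8. WT3 and WT8 stood highest for both, and Jchain, which joins IgA molecules, was highest in the same mice (392 and 267 CPM). These were not even levels across a mouse. The 3 stroma regions of WT3 held 3866, 3332 and 41.3 CPM of Igkc. For Igha they held 4445, 2038 and 45.2, and for Jchain 629.6, 542.2 and 9.84. WT8 gave 1 stroma region. Over the 12 stroma regions of mice with at least 2, the share of variance between mice was 52.7% for Igkc. It was 50.0% for Igha and 28.7% for Jchain. None of these 3 genes passed the test between compartments (Igkc -1.09 ± 0.88, Igha -1.11 ± 0.85, Jchain -1.35 ± 0.55). Jchain did so, higher in stroma, without WT1 (-1.68, edgeR adjusted p = 0.0324) or WT2 (-1.72, adjusted p = 0.0206), and with upper-quartile and library-size scaling. All 3 did so without the pairing of mice. Ccn3, a matrix-associated signalling protein, reached 363 CPM in WT5 and 241 in WT6, against 80.0 or less in the other mice. Rbks, ribokinase, stood at 1994 CPM in WT4 against 24.9 or less elsewhere, and this came from 1 region at 4614 CPM, the next highest region being at 26.8.

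The compartment differences of the WT mice were then set against those of the 6 PV mice in 1 model with a compartment by genotype term. The PV mice were unevenly sampled. One of them gave 1 region per compartment, with 61691 counts in epithelium and 85336 in stroma, and another gave 15 regions of epithelium and 10 of stroma. No gene passed at an adjusted p under 0.05 with edgeR (0 of 14881, 0%), the lowest adjusted p being 0.579, while 1066 genes had an unadjusted p under 0.05. DESeq2 called 1 gene, Ccn2, a connective tissue growth factor. In WT mice it was higher in epithelium by a mean of 1.38 ± 0.88 (SD, n = 7), and in PV mice it differed by -0.91 ± 0.89 (SD, n = 6). The term for Ccn2 was -2.39 ± 0.44 (edgeR, unadjusted p = 4.1e-05) and -2.32 in DESeq2 (adjusted p = 0.0416). In simulated data of this design, with the same spread set for every gene, the test found 50% of genes set to differ by 2-fold. It found 100% of those set to differ by 4-fold. Real genes differ in spread, and the terms of Ccn2 (-2.39) and Cxcl10 (-2.19) did not pass (edgeR adjusted p = 0.579 for both). Changes of the compartment difference could therefore be missed, also at 4-fold or more. Fitted alone, the PV mice gave 6913 calls. Across genes, which are not independent replicates, the log2 differences of WT and PV mice correlated at r = 0.931, and 6963 of the 7097 WT genes called had the same sign in PV. Thra and Klf9, for example, differed by -1.37 ± 0.22 and -1.39 ± 0.22 in the PV mice.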

How the data were processed

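Regions of fixed mouse uterus were profiled with GeoMx whole-transcriptome probes and sequenced. Per the submitters' processing notes the authors used R 4.1.2, with build mm10. The deposited probe counts per region name the GeoMx NGS pipeline 2.3.3.10. The deposited table of raw values per target (19962 targets) held estimated counts that are whole except for a few targets, with 0 written as 1, and these deposited expected counts were used although the design had assumed plain counts. Sums per mouse and compartment were rounded. The probe counts deposited per region gave the true zeros (0.148% of the kept WT values) and left 216 probes that matched no target. These were taken as mostly negative probes, since their geometric mean followed the deposited negative level over regions (Pearson r = 0.9997), and they gave the SD of that level. The deposited Q3-normalised signal, scaled by the authors to the upper quartile and filtered by them to targets detected in enough regions, set the 14881 genes tested and served the limma alternative. Its negative probe row stayed out of the tests.

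Counts were summed per mouse and compartment and fitted in edgeR 4.0.16 (R 4.3.3) by the quasi-likelihood test with TMM scaling, with the mouse as a block and compartment as the tested term, and p-values adjusted by Benjamini-Hochberg over all genes tested (threshold 0.05). CPM use the TMM-scaled library sizes and log2 CPM a prior count of 2. The genotype comparison added a compartment by genotype term over 13 mice. DESeq2 1.42.0, limma 3.58.1 on log2(Q3 + 1), other scalings and filters, subtraction of the negative level, both plates and leaving out each mouse were alternatives. Single values were compared over mice by exact sign-flip permutation tests (numpy 2.4.6), two-sided.

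The samples are paired because both compartments come from the same animal by their labels. Deviations of the 2 compartments of a mouse from their group means correlated at 0.152 to 0.511 across genes (median 0.252). For different mice the median was -0.054, a value that centring on the same 7 mice by itself pulls below 0. The epithelium of 5 of the 7 mice correlated best with the stroma of its own mouse. Summed counts per mouse were 1638481 to 8398111 in epithelium and 373231 to 2213995 in stroma, and the number of mice limits the precision. On simulated data with the same spread set for every gene, the test recovered 94% of 2-fold and 100% of 4-fold differences between WT compartments. The 94 regions of the second plate, outside the rule for members, entered 1 alternative only. Named genes were the compartment checks, the 10 largest differences each way alike in all 7 mice, up to 4 called members of each list each way with all members opposite to most, ligands, receptors and hormone receptors, and the most variable genes, with other genes added for their known role. Members and lists were chosen with earlier results of these data known. Some genes of these lists enter the counts but are not reported here by name.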

Additional observations from a re-analysis of the deposited data

Results flagged for a closer look

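Among 63 genes taken from those of this text and looked at in both compartments (126 groups of 7 mice), 8 groups, or 6.35%, had a mouse far from the other 6. For genes drawn at random chance gives about 5%. That rate is no baseline here, since some of the genes, such as Rbks, were named for their large SD among mice. The measure is the gap from the extreme mouse to its nearest neighbour as a share of the group's range in log2 CPM, held against Dixon's critical value for 7 mice. In stroma, WT1 was highest for Fxyd4 (0.589, 79.0 CPM with the next mouse at 33.4), and WT4 for Rbks (0.763, 1994 CPM against 24.9). WT2 was lowest for Mmp7 (0.691, 4.35 against 12.2 CPM), WT4 for Hgf (0.669, 26.3 against 56.2), WT3 for Dio2 (0.788, 72.1 against 338) and WT8 for Mki67 (0.577, 9.12 against 23.4). In epithelium, WT5 was highest for Tgfbr2 (0.601, 78.9 against 57.0 CPM) and WT3 lowest for Cox5a (0.678, 168 against 264). For the epithelial calls of Fxyd4 and Cox5a and the stromal calls of Hgf, Dio2 and Tgfbr2, made by the edgeR test, all 7 mice had the same sign.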

How the results depend on the processing

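The replicate block, which pairs the compartments of a mouse, raised the number of genes called, since the fit with no replicate block gave 5953 calls (2921 higher in epithelium and 3032 in stroma), 5875 of them among the 7097. It moved no count of calls by over 1.5 times. Leaving out each mouse in turn gave 6173 to 6989 calls, 3019 to 3305 in epithelium and 3133 to 3684 in stroma, 1029 to 1140 and 1254 to 1439 at 2-fold or more, and 0 for the genotype term each time. Library-size scaling moved the calls to 1836 in epithelium and 6798 in stroma, and at 2-fold or more to 712 and 2175. Subtracting the negative level gave 2143 genes at least 2-fold higher in stroma, and adding the second plate gave 564 genes at least 2-fold higher in epithelium and 501 in stroma. The test against a 2-fold change gave 1307 calls, 580 in epithelium and 727 in stroma, which by its construction is stricter. Total calls were 6387 with DESeq2, 7023 with limma, 7581 with upper-quartile scaling, 8634 with library-size scaling and 6506 after subtraction of the negative level. The genotype term had 1 call with DESeq2. Of the 393 genes named by the rule, 0 turned their direction in any of these settings while called. At most 54 lost their call in a setting other than the 2-fold test, and that was with the second plate added. Among genes named above, Ihh, Foxa2, Cxcl15, Msx2, Nectin1, Pard3, Lama3, Dio1, Gstm7, Slpi, Tff3, Rnf43 and Znrf3 lost it there. For the number of targets above background, the direction depended on the threshold. Targets per region above 2 times the negative level differed by a mean of -631 (epithelium minus stroma, exact sign-flip test p = 0.0781). They were more in epithelium in 1 of 7 mice. Those above the negative level plus 2 SD differed by 1043 (same test, p = 0.0156) and were more in epithelium in 7 of 7 mice. The causes of these shifts were not tested.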
